A study of Mus musculus with 50 samples.

Results

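The heat shock proteins and J-domain cochaperones measured here are 60 genes, represented by 99 probes of the array's 20355. They were chosen by name: Cryab and every gene whose platform symbol begins with Hspa, Hspb, Hspd, Hspe, Hsph, Hsp90, Dnaja, Dnajb, Dnajc or Bag and a code, leaving out the endoplasmic reticulum chaperones Hspa5 and Hsp90b1. Of the 60 genes, 31 had 1 probe and 29 had several, up to 5 for Dnajb6. Symbols came from the platform annotation, which names 9930 genes through the 14030 probes with 1 symbol. Hspa2, Hspa8 and Hsp90ab1 were not among its named probes.

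The RNA came from wobbler mice, homozygous for the recessive wr allele (wr/wr), a mutation of Vps54 that disturbs vesicle return from endosomes to the Golgi. Wobbler mice lose motor neurons and form sperm with defective acrosomes. The testes of 10 wr/wr mice were each hybridised on 4 arrays, each of which held the wild-type testis pool in its other colour. In spinal cord there were 3 wr/wr RNAs, pool1 and pool2 of 4 mice apiece on 4 arrays each and the cord of mouse 5995 on 2 arrays, with a wild-type cord pool in the other colour. Each tissue had 1 such wild-type pool. Ages are not given in the labels, no allele or treatment other than wr is named, and all 9 cord mice are among the 10 testis mice. The array held 0 named Vps54 probes, so the mutated gene was not checked, and ratios carry no level against which the tissues could be checked with markers.

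Heat shock proteins keep other proteins folded. Hsp70 proteins bind and release unfolded stretches in a cycle driven by ATP, J-domain proteins (the Dnaj genes) bring clients and start that cycle, and nucleotide exchange factors such as the BAG proteins and Hsp110 end it. Hsp90 finishes clients such as kinases and steroid receptors, the chaperonin of mitochondria (Hspd1 with its lid Hspe1) encloses them, and small heat shock proteins hold them until they can be refolded. Many of these genes are induced through heat shock factor 1, and male germ cells carry their own members, such as Hspa1l and Dnajb3.

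Every value below is a log2 ratio, wr/wr over wild type, with arrays centred on their median and the arrays of each dye orientation averaged before the mean of both was taken for an RNA. That direction is likely, since the labels list the wr/wr RNA as the first channel, but no source states it, and the opposite reading would turn every sign. The ratio was tested against 0 over RNAs with limma, with Benjamini-Hochberg adjustment over all probes, and "called" means an adjusted p under 0.05. The spread among wild-type mice is not in these tests, which have a single pool on that side. In whole tissue, fewer cells of a type and less RNA per cell cannot be told apart. Arrays resembled each other more by dye than by RNA, with a median Spearman rho of 0.196 in testis between different RNAs of matching dye and 0.109 between the dye orientations of 1 RNA. In cord the same medians were 0.239 and -0.0795. In data simulated on these arrays, the testis design called 46% of shifts of 0.25 and 92.5% of shifts of 1, and the cord design called 0% of either.

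In the wr/wr testis, with both dyes averaged, chaperone transcripts were more often higher than lower, by small amounts. Of the 97 probes tested, 19 were called higher (19.6%), where 7.28% of all 20218 probes were. Another 4 were called lower (4.12%), near the 5.06% of all probes. The 19 probes belong to 15 of the 59 tested genes (25.4%, where 10.5% of all 9866 tested genes had a probe called higher) and the 4 to 4 other genes (6.78%, against 6.23%). The median ratio was 0.06 over the chaperone probes and -0.01 over all probes. The largest called ratio was that of the nuclear J protein Dnajc8, 1.25-fold. Arrays with wr/wr RNA in Cy3 alone gave 3 of 99 probes higher and 3 lower, where 2.55% and 4.1% of all were. Those with it in Cy5 alone gave 25 and 5, where 9.75% and 7.02% of all were. With each mouse left out in turn, the count of probes called higher ranged from 3 to 23 while the median of the chaperone ratios stayed between 0.05 and 0.07. Leaving out mouse 6493 gave 3 and mouse 6069 gave 5; it was 7 for mouse 5907, 9 for 6335, 10 for 5995 and 11 for 5906. Probes called lower numbered 0 when mouse 6493 was left out, 1 for mouse 5907 or 6335, and 2 for 5906, 5995, 5997, 6069 or 6163. The shares of all probes called moved too, to 2.49% higher and 1.73% lower without mouse 6493.

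**Figure D1:**
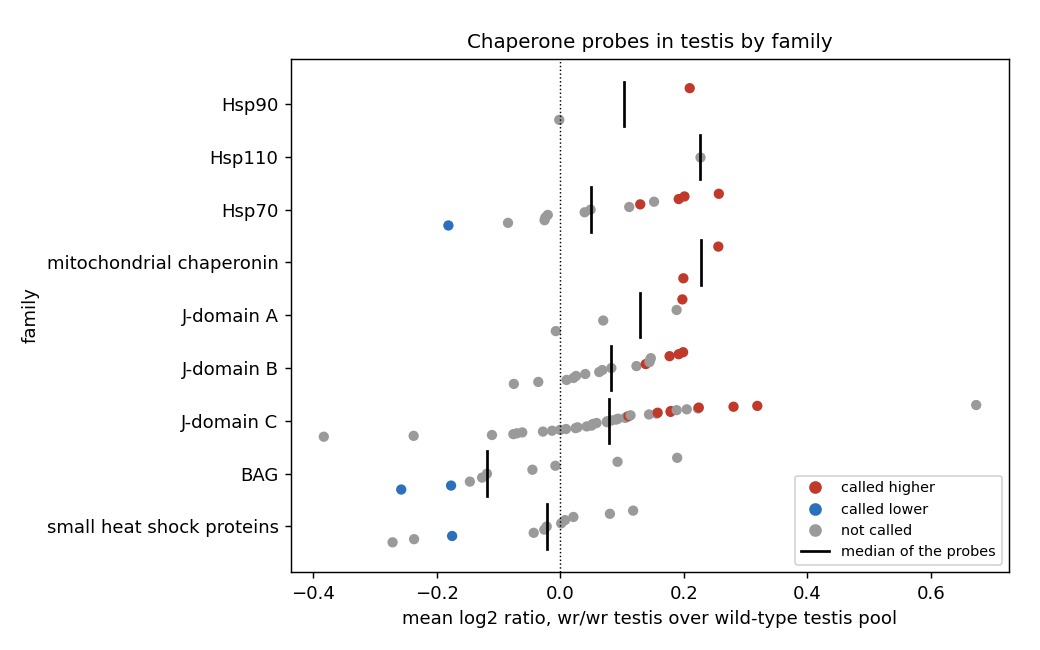
Mean log2 ratio of each tested chaperone probe in testis (x axis, 1 point per probe, mean over 10 mice or 9 for 3 probes) by family (y axis), with points spread vertically for legibility, coloured by call, and a bar at the median of each family. Called-higher probes lie among the J-domain, Hsp70, Hsp90 and chaperonin probes, and called-lower probes among the BAG, Hsp70 and small heat shock protein probes.

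J-domain cochaperones make up most of the probes. Of their 59 probes (35 genes), 12 were called higher and 0 lower, beside the 19 and 4 of all 97 chaperone probes. Among all probes on the array, 7.28% were called higher and 5.06% lower. Of the 59, 47 lay above 0, where 9428 of all 20218 probes did. Dnajc8, a J protein found with the splicing machinery, was called higher with all 3 of its probes. Probe 3404 ranged from -0.01 to 0.81 over the 10 mice with a median of 0.27, and averaged 0.32 ± 0.25 (SD, n = 10; limma adjusted p = 0.0248). The mean was 0.28 ± 0.23 for probe 4030 and 0.18 ± 0.14 for probe 7613, both above 0 in 10 of 10 mice. Dnajc15, a J protein of the mitochondrial inner membrane, ranged from 0.02 in mouse 5905 to 0.49 in mouse 5907, with a median of 0.23 and a mean of 0.22 ± 0.14 (adjusted p = 0.0184), so no mouse was below 0.

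Dnajc7, which carries tetratricopeptide repeats that bind Hsp70 and Hsp90, was called higher with both probes. Probe 16506 averaged 0.16 ± 0.14 (adjusted p = 0.0476) and probe 14525 averaged 0.11 ± 0.08 (adjusted p = 0.0463), each above 0 in 9 of 10 mice. Dnajc2, the ribosome-bound J protein that meets emerging chains, ranged from -0.06 to 0.40 with a median of 0.19 and averaged 0.18 ± 0.17 (adjusted p = 0.0485). Mice 5905 and 5906 were below 0 for Dnajc2 and the other 8 above.

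In the A class 1 of 4 probes was called higher and in the B class 4 of 17, where 7.28% of all probes were. In both classes 0 were called lower, where 5.06% of all probes were. Dnaja1, a major cytosolic partner of Hsp70, ranged from -0.03 to 0.42 with a median of 0.17 (mean 0.20 ± 0.16, adjusted p = 0.0303), and only mouse 5997 was below 0. Dnajb1, the classical heat-inducible Hsp40, ranged from -0.01 to 0.30 with a median of 0.12 (mean 0.14 ± 0.09, adjusted p = 0.0288), with mouse 6163 below 0. Dnajb4, a close relative of Dnajb1, averaged 0.20 ± 0.11 with probe 13976 (adjusted p = 0.0165) and was above 0 in every mouse, from 0.0013 in mouse 5997 to 0.32 in mouse 6335. Dnajb6, which keeps polyglutamine proteins from aggregating, had the lowest adjusted p of the chaperone probes. Its probe 9719 lay between 0.10 and 0.37 in all 10 mice, with a median of 0.16 and a mean of 0.19 ± 0.10 (adjusted p = 0.0147). Dnajb3, a J protein of mouse spermatids, lay between 0.05 and 0.42 with a median of 0.13 (mean 0.18 ± 0.14, adjusted p = 0.0299), again with no mouse below 0.

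The J-domain probes that were not called included large but uneven ratios. Dnajc25 probe 15485 averaged 0.67 ± 1.48, with mouse 6493 at 4.48, where 1 array gave a value of 16.831, and the other Dnajc25 probe averaged 0.08. Dnajc5 probe 15417 averaged -0.38 ± 1.49 over 9 mice, with mouse 5907 at -4.30, where 1 array gave -16.628. The other 2 probes of Dnajc5, the cysteine string protein of synaptic vesicles, averaged 0.08 and 0.01. Dnajc16 averaged -0.24 ± 0.54 and was above 0 in 3 of 10 mice. Among J proteins of germ cells, Dnajc5b averaged 0.20 and 0.19 with its 2 probes (adjusted p = 0.0665 and 0.108), Dnajb8 0.15 and 0.03, Dnajc5g 0.11 and Dnajb13, a protein of the sperm axoneme, 0.06. The neuronal J protein Dnajb2 averaged 0.15 and 0.02 with its 2 probes. Dnajc10, a J protein with thioredoxin domains in the endoplasmic reticulum, averaged 0.22 ± 0.36 (adjusted p = 0.182) and 0.16 ± 0.15 (adjusted p = 0.0567). Dnajb11 was at 0.14 ± 0.17, the other Dnajb4 probe at 0.04, the Dnajc17 probes at 0.05 and 0.08, and Dnajc6 probes 6845 and 10369 at -0.08 and 0.11.

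Among the Hsp70 proteins, 4 of 13 probes were called higher and 1 lower, where 7.28% and 5.06% of all probes were. Hspa1l, the Hsp70 of spermatids, ranged from -0.05 in mouse 5905 to 0.65 in mouse 6065, with a median of 0.22 and a mean of 0.26 ± 0.20 (1.20-fold, adjusted p = 0.0263). Hspa9, the Hsp70 of the mitochondrial matrix, had 4 probes, all with a mean above 0. Probe 13334 averaged 0.20 ± 0.19 (adjusted p = 0.0463) and probe 5188 averaged 0.13 ± 0.08 (adjusted p = 0.0267), while the other 2, at 0.15 ± 0.33 and 0.11 ± 0.11, were not called. Probe 5188 was above 0 in 10 of 10 mice, from 0.02 to 0.26, but unevenly by dye. It averaged 0.01 on arrays with wr/wr RNA in Cy5 and 0.25 on those with it in Cy3.

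Hspa4, a relative of Hsp110 that acts as an exchange factor for Hsp70, was called with 1 of its 3 probes. Probe 12027 lay between 0.05 and 0.55 with a median of 0.16 and averaged 0.19 ± 0.15 (adjusted p = 0.0307), whereas the other 2 averaged -0.02 and -0.03. Hspa14, which sits with Dnajc2 on the ribosome, was called lower with probe 5947, which ranged from -0.45 to 0.05 with a median of -0.18 and averaged -0.18 ± 0.15 (adjusted p = 0.0373). Its other probes averaged -0.08 and 0.04 and were not called. Dnajc2 and Hspa14, partners in 1 complex, therefore carried calls of opposite sign.

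The stress-inducible Hspa1a averaged -0.02 ± 0.13 and was above 0 in 2 of 10 mice. Its near-identical copy Hspa1b had values in both dyes in 7 mice and was not tested in testis. They ran from -1.30 to 3.75, the latter in mouse 5995, where 1 array gave 16.618. RNA of either gene may bind the other's probe, so both values are uncertain. Hspa12b, an atypical Hsp70 of endothelium, averaged 0.05 ± 0.38. Hsph1, the inducible Hsp110, averaged 0.23 ± 1.15 over 9 mice, spread from -1.73 in mouse 5905 to 2.26 in mouse 5997, and was not called.

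Hsp90aa1, the inducible cytosolic Hsp90, was measured by 2 probes that disagreed. Probe 8066 ranged from 0.02 in mouse 5997 to 0.39 in mouse 6493, with a median of 0.16 and a mean of 0.21 ± 0.14 (1.16-fold, adjusted p = 0.0207), above 0 in 10 of 10 mice. Probe 9680 ranged from -0.15 to 0.12 and averaged -0.0015 ± 0.10, above 0 in 6 mice. Of the mitochondrial chaperonin, both tested subunits were called higher. Hspd1 ranged from -0.05 in mouse 5905 to 0.66 in mouse 6065, with a median of 0.25 and a mean of 0.26 ± 0.21 (adjusted p = 0.0276). Hspe1 ranged from -0.01 in mouse 5905 to 0.57 in mouse 5995, with a median of 0.13 and a mean of 0.20 ± 0.19 (adjusted p = 0.0473). Mouse 5905 was the only one below 0 for either subunit. A second Hspd1 probe had too few values to be tested.

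BAG proteins and small heat shock proteins gave no probe called higher, where 7.28% of all probes were, a share at which so few probes can give 0. Of 9 BAG probes, 7 had a mean below 0, as did 10790 of all 20218 probes. Of the 9, 2 were called lower, where 5.06% of all probes were. Bag6, which guards tail-anchored and misplaced membrane proteins and is needed in mouse male germ cells, ranged from -0.66 in mouse 5907 to 0.12 in mouse 5905 with probe 14119, with a median of -0.24 and a mean of -0.26 ± 0.22 (0.837-fold, adjusted p = 0.0325). Its other probe averaged -0.12 ± 0.17 and was not called (adjusted p = 0.163). Bag4, a cytoplasmic BAG protein known to bind death receptors, averaged -0.18 ± 0.16 with probe 16188 (adjusted p = 0.0433) and -0.15 ± 0.20 with its other probe, each below 0 in 9 of 10 mice. Bag3, the partner of Hspb8 in autophagy, averaged -0.13 and -0.04 with its 2 probes. Bag1 was at 0.19 ± 0.33.

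Of 11 small heat shock protein probes, 1 was called lower, near the 5.06% of all probes. The called probe belongs to Hspb7, best known from heart and skeletal muscle. It ranged from -0.34 to 0.01 with a median of -0.20 and averaged -0.17 ± 0.12 (adjusted p = 0.0253). The other Hspb7 probe averaged 0.01. Hspb1 (Hsp27), a regulator of actin and of cell survival, ranged from -0.01 in mouse 5997 to 0.37 in mouse 5906, with a median of 0.08 and a mean of 0.12 ± 0.13, above 0 in 9 of 10 mice but not called (adjusted p = 0.0928). The 2 probes of Cryab, the alpha-B crystallin, averaged -0.03 and -0.04. Hspb8 averaged -0.24 and -0.02, Hspb6 0.02, and Hspb2, a neighbour of Cryab, 0.0016. Hspb3 averaged -0.27 ± 0.72 over 9 mice, and Hspb11, a subunit of intraflagellar transport, 0.08.

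**Figure D2:**
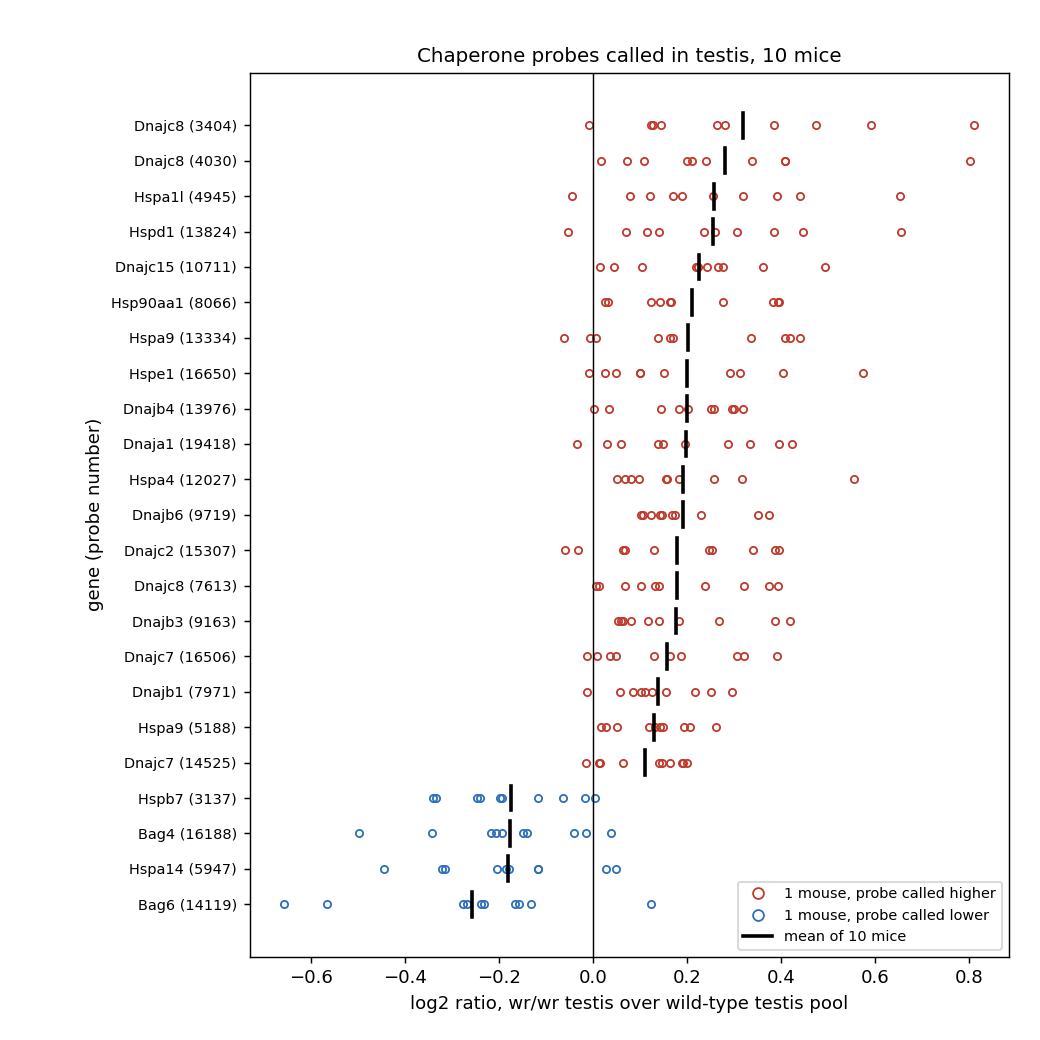
Log2 ratio in each of 10 wr/wr testes (x axis, open circles, 1 per mouse) for the 23 chaperone probes called in testis (y axis, gene and probe number), with a bar at the mean. For 9 of the 19 probes called higher, every mouse lies above 0, and for the 4 probes called lower 1 or 2 mice lie above 0.

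Over the mice, 9 of the 97 probes were above 0 in all 10 (9.28%, against 3.31% of all probes) and 0 were below 0 in all 10 (3.19% of all probes). The mice differed in size. Over the 19 probes called higher, the median ratio was 0.03 in mouse 5905, 0.05 in 5997 and 0.07 in 6163, and lay between 0.14 and 0.37 in the other 7, the highest being mouse 5907. Between 14 and 19 of these 19 probes were above 0 in every mouse, with 19 in 6 mice. Probes were called from the mean over these same mice and both dyes. The counts per mouse and per dye among called probes are therefore largely set by the calling. By dye, all 19 were above 0 in the mean of the arrays with wr/wr RNA in Cy5 and 17 in the mean of those with it in Cy3; the 2 exceptions were Dnaja1 (-0.01 in Cy3) and Dnajc7 probe 14525 (-0.05 in Cy3). All 4 probes called lower were below 0 in both, but not evenly. Bag4 probe 16188 was at -0.35 in Cy5 and -0.0063 in Cy3, with 6 of 10 mice above 0 in Cy3. Hspb7 probe 3137 was at -0.28 in Cy5 and -0.07 in Cy3. Over all 97 probes, called or not, the Cy5 and Cy3 means had opposite signs for 42 (43.3%, against 47.3% of all probes). With Cy5 arrays alone 25 of 99 probes were called higher and 5 lower, where 9.75% and 7.02% of all probes were. With Cy3 arrays alone 3 of 99 were called higher and 3 lower, where 2.55% and 4.1% of all probes were. With the sign of the Cy3 arrays turned, 7 were called higher and 1 lower, where 3.96% and 0.732% of all probes were.

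Probes of 1 gene did not always share a call or a sign. Of the 28 genes with several tested probes, 11 had a call, and 2 of these, Dnajc7 and Dnajc8, had every probe called. In 6 of the 11 all probes had means of 1 sign, as for Hspa9, Bag4 and Bag6. In the other 5 (Hsp90aa1, Hspa4, Dnajb6, Hspa14 and Hspb7) the probes differed in sign. For Dnajb6, 4 of 5 probes were above 0, at 0.19, 0.12, 0.08 and 0.07, and the last, at -0.04, had the widest spread. The other 8 called genes had 1 tested probe each, so that their call had no check on the array. With probes averaged per gene, 11 of 59 genes were called higher and 1 lower, where 6.90% and 4.93% of all 16167 genes and unnamed probes were.

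**Figure D3:**
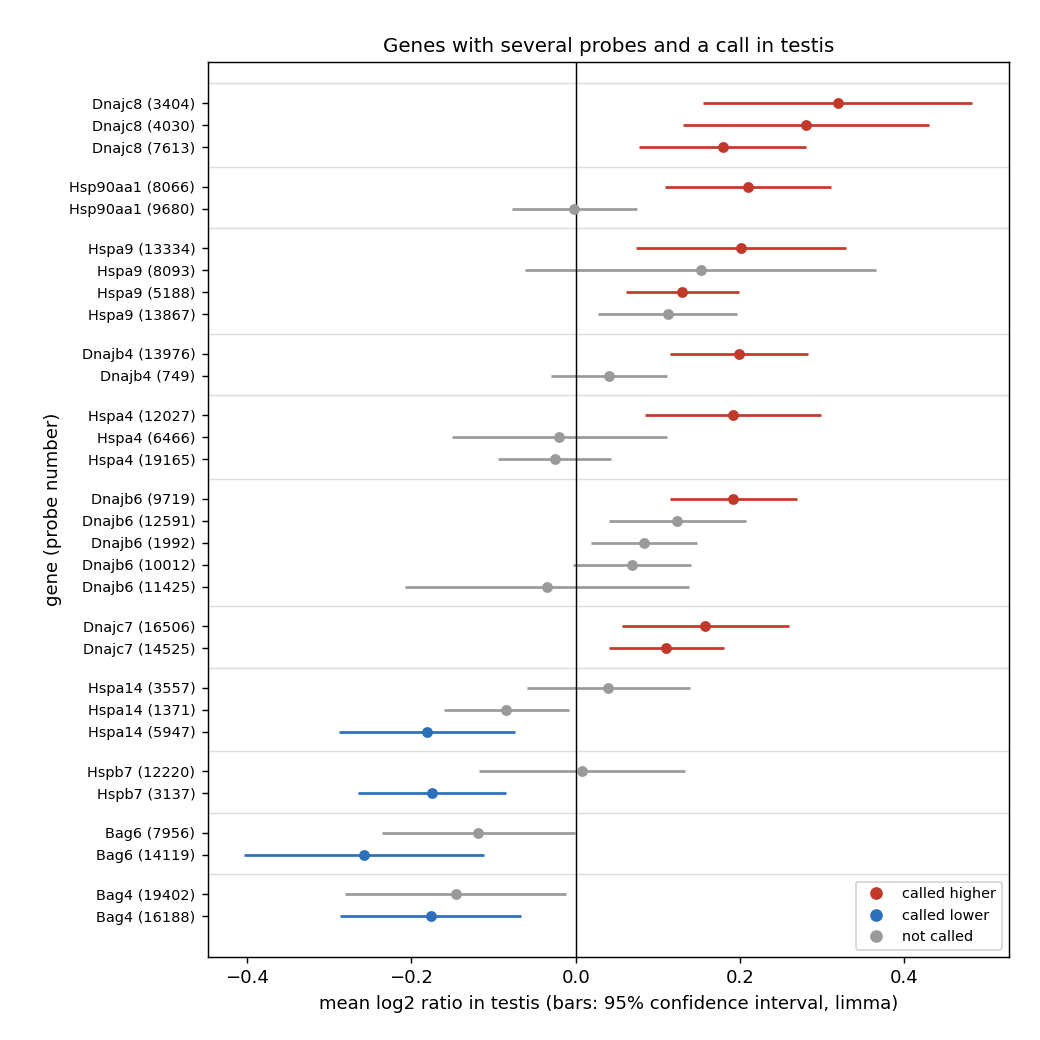
Mean log2 ratio in testis with its 95% confidence interval from limma (x axis) for every tested probe of the 11 chaperone genes that had several probes and a call (y axis, gene and probe number), coloured by call. Intervals of all Dnajc7 and Dnajc8 probes lie above 0, whereas those of the uncalled Hsp90aa1 and Hspa4 probes span 0.

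The promoters of these genes were searched for the heat shock element, the repeated GAA unit that heat shock factors bind, because several called genes are classical targets. RefSeq promoter sequences (build GRCm38.p6) were given for 49 of the 60 genes. Within 250 bases before the start, a pair of facing units, TTCNNGAA or GAANNTTC on either strand, was present in 14 of 49 (28.6%), against 3932 of 27025 promoters of all genes (14.5%). A run of 3 units, TTCNNGAANNTTC or GAANNTTCNNGAA, was present in 3 of 49 (6.12%), against 139 of 27025 (0.514%). Each of these runs contains the pair, so the counts overlap. The 3 genes were Hspd1, Hspe1 and Dnajb6, all called higher in testis. Hspd1 and Hspe1 lie head to head on chromosome 1, their starts 95 or 216 bases apart depending on the Hspd1 transcript. They share 1 element, so that the 3 genes hold 2 separate loci. It lies between the starts that are 216 bases apart. The Hspd1 transcript from the start 95 bases away runs across the Hspe1 start, and no element was matched before that Hspd1 start. The pair of units was found in 5 of 12 genes called higher, 0 of 3 called lower and 8 of 33 tested but not called. The sequences below, 120 bases up to the last base before the start, are shown because they hold the elements of called genes (Hspe1, Dnajb6, Dnajb4) and of 2 classical heat-inducible genes that were not called (Hspb1, Hspa1a). Capitals mark the matched units. They lie at chr1:55088028-55088147 (plus strand, Hspe1), chr5:29735778-29735897 (plus, Dnajb6), chr3:152193846-152193965 (minus, Dnajb4), chr5:135887799-135887918 (plus, Hspb1) and chr17:34972157-34972276 (minus, Hspa1a).
Hspe1: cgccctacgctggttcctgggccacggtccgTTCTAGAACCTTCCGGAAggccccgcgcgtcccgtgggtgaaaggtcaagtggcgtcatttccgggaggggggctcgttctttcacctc
Dnajb6: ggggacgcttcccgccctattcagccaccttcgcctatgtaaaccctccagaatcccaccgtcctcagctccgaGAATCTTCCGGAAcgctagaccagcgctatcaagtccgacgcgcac
Dnajb4: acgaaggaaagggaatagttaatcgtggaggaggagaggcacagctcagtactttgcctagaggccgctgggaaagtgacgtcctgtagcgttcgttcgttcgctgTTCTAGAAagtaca
Hspb1: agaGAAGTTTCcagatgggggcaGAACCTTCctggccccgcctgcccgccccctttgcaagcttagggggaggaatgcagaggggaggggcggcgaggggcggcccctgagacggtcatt
Hspa1a: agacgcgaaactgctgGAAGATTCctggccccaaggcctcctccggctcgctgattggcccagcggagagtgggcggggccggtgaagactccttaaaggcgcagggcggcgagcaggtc

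In Hspe1 the capitals span bases -89 to -72 from the start, 4 alternating units in a row, and in Dnajb6 bases -46 to -34, 3 units. Dnajb4 has a single pair at -14 to -7, Hspa1a a single pair at -104 to -97, and Hspb1 separate pairs at -117 to -110 and -97 to -90. A match describes these letters and says nothing of binding. Across the 10 testes, Hspd1 and Hspe1 correlated at Pearson's r = 0.655 (permutation p = 0.0494, 0.0988 after adjustment over the 2 pairs examined) and Spearman's rho = 0.649 (permutation p = 0.0498, adjusted 0.0995), and r was 0.486 without mice 5905 and 6065, so the relation did not pass after adjustment. The other head-to-head pair examined, Cryab and Hspb2, correlated at r = 0.449 (permutation p = 0.183) and rho = 0.503 (permutation p = 0.146), and at r = 0.41 without mice 5907 and 6065.

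Named groups of the folding system, which include genes outside the chaperone names, were counted in the same fit, in which 10.5% of all tested genes had a probe called higher and 6.23% a probe called lower, and the median over all probes was -0.01. Of 13 tested genes that heat shock factor 1 induces on heating, 6 were called higher and 0 lower: Hsp90aa1, Hspd1, Hspe1, Dnaja1, Dnajb1 and the immunophilin Fkbp4 (0.24 ± 0.15), with a median probe ratio of 0.08. By probe, 6 of 18 were called higher, 10 had means above 0 and 8 below, among them Hspa1a and both probes of Bag3, Cryab and Hspb8. Of 6 germ-cell chaperone genes 2 were called higher, Hspa1l and Dnajb3, and all 8 probes had means above 0 (median 0.16). Of 19 genes of mitochondrial protein folding and import 5 were called higher, Hspd1, Hspe1, Hspa9, Dnajc15 and the import motor anchor Timm44 (0.13 ± 0.11 with 1 probe, -0.26 with the other), and 21 of 27 probes had means above 0. Of 9 genes of endoplasmic reticulum J proteins 1 was called higher, the translocon partner Sec63, at 0.45 ± 0.26 with probe 12994 and 0.03 with probe 656, near the share of all genes. Of 4 neuronal chaperone genes 0 were called (0 of 10 probes).

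Among cochaperones of other families, 3 of 14 genes were called higher and 1 lower, by probe 4 and 1 of 23, where 7.28% and 5.06% of all probes were. Tomm34, which receives mitochondrial precursors from Hsp70 and Hsp90, was at 0.19 and 0.24 with its 2 probes, Sugt1 at 0.15 ± 0.13, and the myosin chaperone Unc45b at -0.17 ± 0.15. Of 6 listed heat shock factors and their partners, 3 genes had probes. Of their 7 probes 2 were called higher and 1 lower, where 7.28% and 5.06% of all probes were. Hsf5, the only heat shock factor among the 3, averaged 0.12 ± 0.16 and 0.07 ± 0.17 with its 2 probes and was not called. Hsbp1, a small protein that binds heat shock factor 1, was called higher with 1 probe (0.24 ± 0.17) and not with the other (0.20 ± 0.27, adjusted p = 0.131). Hsf2bp, a meiotic partner of heat shock factor 2, was called in both directions, at 0.19 ± 0.18 with probe 7294 and -1.14 ± 0.69 with probe 14823, and its last probe averaged -0.02.

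Cell type markers of the testis moved beside these results. They were chosen with earlier results of these data known. Of all tested genes, 10.5% had a probe called higher and 6.23% a probe called lower. Of 5 Leydig cell genes 3 were called lower and 0 higher (probe ratios from -1.16 to 0.25). Of 4 Sertoli cell genes 4 were called higher (-0.14 to 0.72), Sox9 at 0.19 with probe 1477 but at -0.14 with probe 18047. Of 4 spermatocyte genes 3 were called higher and 1 lower (-0.28 to 0.29), and of 9 spermatid genes 0 were called higher and 1 lower (-0.17 to 0.33). The part of cell composition in the chaperone ratios was not tested.

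In the wr/wr spinal cord the chaperone ratios were spread wider, and none was called. By limma, 0 of 86 chaperone probes and 0 of all 17055 probes passed (0.00% of all), and the smallest adjusted p was 0.542. At an unadjusted p under 0.05, 2 chaperone probes were higher (2.33%, against 4.29% of all probes) and 5 lower (5.81%, against 4.36%). Over the 3 RNAs, 15 probes were above 0 in each (17.4%, against 18.5%) and 23 were below 0 in each (26.7%, against 20.8%). The median of the chaperone ratios was -0.01 and that of all probes -0.0032.

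The highest cord ratio belonged to Hspa1b, with 5.48 in pool1, 0.38 in pool2 and 1.95 in mouse 5995, a mean of 2.60 ± 2.62 (SD, n = 3). Its value in pool1 rests on 1 array that gave 16.524. The single Hspa1a probe averaged -0.03 ± 0.07. Hspb1, known to rise in injured neurons and in reactive glia, was at 0.76 in pool1, 1.09 in pool2 and 0.21 in mouse 5995. All 3 RNAs were above 0, and the mean was 0.69 ± 0.44 (1.61-fold; unadjusted p = 0.0329, adjusted p = 0.542, limma).

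Some J proteins of germ cells stood among the high cord ratios and others did not. Dnajc5b was at 0.54 in pool1, 0.36 in pool2 and 1.46 in mouse 5995 with probe 12831 (mean 0.79 ± 0.59) and averaged 0.46 ± 0.34 with probe 12121, each above 0 in all 3 RNAs. Dnajc5g averaged 0.67 ± 0.72, with mouse 5995 at 0.01 and pool2 at 1.43. Dnajb8 averaged -0.23 ± 0.07 with probe 8128, below 0 in all 3 RNAs, and 0.10 with the other, and Hspa1l averaged -0.21, below 0 in all 3. Dnajb3 was at -0.08 in pool1 and -0.49 in pool2, and mouse 5995 lacked a value with wr/wr RNA in Cy5. Its dyes were opposite, at -0.77 in Cy5 over 2 RNAs and 0.78 in Cy3 over 3. Dnajb6 probe 9719 averaged 0.54 ± 0.50, Dnajb13 0.53 ± 0.77 and Dnajb2 probe 6877, of the neuronal HSJ1, 0.53 ± 0.50. The dyes often differed. Dnajb2 probe 6877 averaged -1.04 with wr/wr RNA in Cy5 and 2.09 in Cy3, so its mean lies between opposite readings. In the same order, Dnajc5b probe 12831 was at 0.27 and 1.31, probe 12121 at 0.05 and 0.87, and Dnajc5g at 0.15 and 1.20. Dnajb6 probe 9719 was at 0.27 and 0.82, Dnajb13 at 0.50 and 0.56, and Hspa1l at 0.01 and -0.44. Dnajc6 probe 6845, of the clathrin-uncoating factor auxilin, averaged 0.58 ± 1.57, and its 3 RNAs ranged from -0.68 to 2.34. Its other probes averaged -0.30 and -0.09.

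Cryab had low cord means with both probes, through the arrays with wr/wr RNA in Cy3. Those arrays averaged -0.93 for probe 1867 and -0.76 for probe 17462. The Cy5 arrays averaged 0.03 and -0.08, each with 1 of 3 RNAs above 0. Probe 1867 was at -0.34 in pool1, -0.54 in pool2 and -0.47 in mouse 5995, a mean of -0.45 ± 0.10 (unadjusted p = 0.0163, limma), and probe 17462 averaged -0.42 ± 0.27, also below 0 in all 3. Hsp90aa1 probe 8066 was at -0.26, -0.47 and -0.50 in pool1, pool2 and mouse 5995, a mean of -0.41 ± 0.13 (unadjusted p = 0.0252), while probe 9680 averaged 0.21 ± 0.30. Dnajc7 probe 14525 had the tightest values over RNAs, -0.32 in pool1, -0.41 in pool2 and -0.38 in mouse 5995 (mean -0.37 ± 0.05, unadjusted p = 0.0255, limma). By dye it averaged 0.0037 with wr/wr RNA in Cy5 and -0.74 in Cy3, a gap that the SD over RNAs does not show. The other Dnajc7 probe averaged 0.05. The lowest mean was that of Dnajc17, a J protein with an RNA-recognition motif, at -0.98 ± 0.56 with probe 19452 (unadjusted p = 0.0196), against 0.07 with probe 19451. Bag1, an exchange factor for Hsp70, averaged -0.70 ± 0.50, Dnajb11, a J protein of the endoplasmic reticulum lumen, -0.67 ± 0.59, Dnajc2 -0.43 ± 0.39, Dnajc8 probe 4030 -0.39 ± 0.57 and Dnajb1 -0.37 ± 0.28. Apart from Dnajc8, with pool2 at 0.08, these were below 0 in all 3 RNAs.

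The cord means of other probes of these genes, and of the genes called in testis, lay on both sides of 0. Dnajb2 probe 13475 averaged -0.13 ± 0.45. Of Dnajb6, probe 1992 averaged -0.28 ± 0.08 (0.02 in Cy5 and -0.58 in Cy3), below 0 in all 3 RNAs, and the others -0.13, 0.09 and -0.03. Dnajc8 averaged 0.01 with probe 3404 and -0.33 ± 0.34 with probe 7613. Dnajc10 averaged -0.27 ± 0.09 with probe 795, below 0 in all 3, and 0.02 with the other. The mitochondrial genes gave means of either sign, with Hspd1 at -0.17, Hspe1 at -0.23, Hspa9 at -0.21, -0.23, 0.10 and 0.41, and Dnajc15 at -0.03 ± 1.02. Hspa4 averaged 0.01, -0.25 and -0.24, and Dnaja1 -0.16. Dnajb4 averaged -0.19 with probe 13976 and 0.09 with the other, Dnajc5 -0.02 and -0.36 with probes 11759 and 18454, and Dnajc25 0.17 and -0.22. Bag4 averaged 0.03 and 0.02, Bag6 -0.09 and -0.03, Hspb7 probe 3137 0.06 and Hspb8 probe 17231 -0.09. Some of these means near 0 lie between opposite dye readings. Dnajc15 averaged -1.005 with wr/wr RNA in Cy5 and 0.94 in Cy3. In the same order, Dnajc5 probe 11759 was at -0.94 and 0.90, and Hspb7 probe 3137 at -0.88 and 0.9975.

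**Figure D4:**
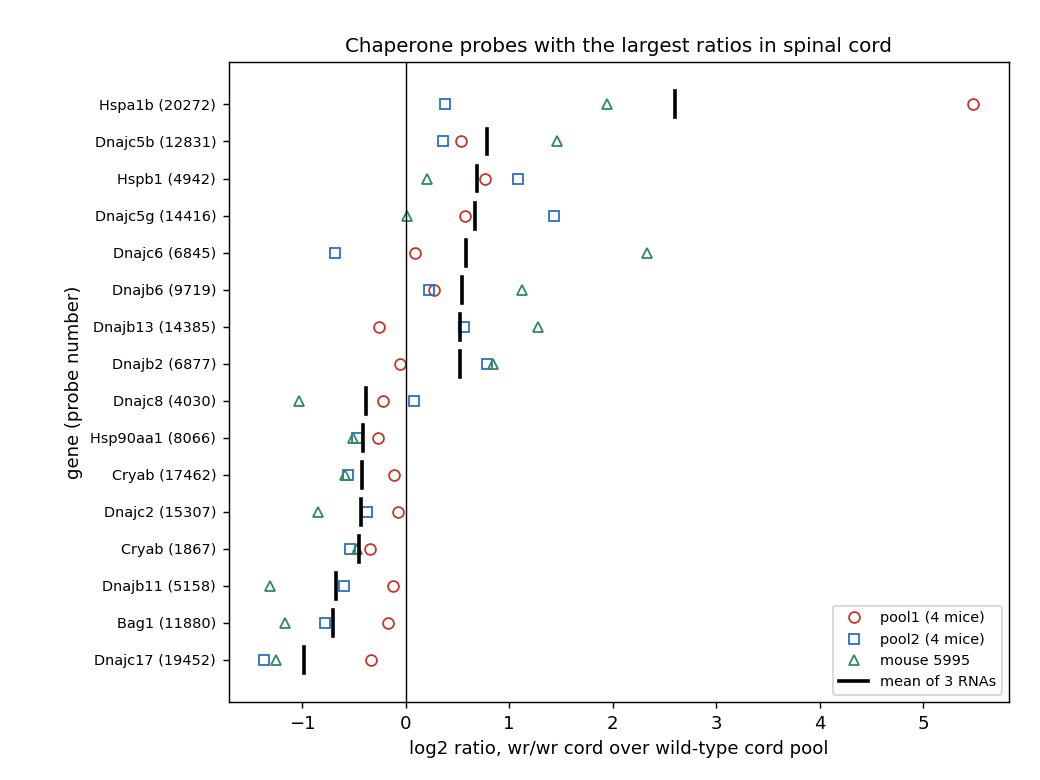
Log2 ratio in each of the 3 wr/wr cord RNAs (x axis; circle pool1, square pool2, triangle mouse 5995) for the 8 chaperone probes with the highest and the 8 with the lowest mean in cord (y axis, gene and probe number), with a bar at the mean. The Hspb1 points lie between 0.21 and 1.09, the Cryab probe 1867 points between -0.54 and -0.34, and the Hspa1b mean is carried by pool1 at 5.48.

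Marker genes, also chosen with earlier results known, moved in cord too. Of all 17055 probes tested in cord, 8449 had means above 0 and 8606 below. Of 8 microglial probes, all 8 had means above 0 (0.12 to 1.43), and of 11 astrocyte probes 8 did (-0.57 to 1.43). Of 6 oligodendrocyte probes all 6 had means below 0 (-0.73 to -0.17), and of 3 motor neuron probes all 3 (-0.90 to -0.48). None of these was called, and the part of cell composition in the chaperone ratios of the cord was not tested.

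The same mutant animals thus allowed testis to be set against cord, for the 85 chaperone probes tested in both. Of the 18 probes called higher in testis and tested in cord, 14 had a cord mean below 0 (median -0.21), as did 29 of the 63 chaperone probes called in neither direction in testis and 8606 of all 17055 probes tested in cord. In the fit over all 13 RNAs with 1 spread, 21 chaperone probes had a higher ratio in testis than in cord (24.7%, against 10.8% of 17005 probes) and 3 a lower one (3.53%, against 10.4%). When every cord RNA was paired with its own animals' testes (replicate block), 0 were called in either direction, and 13 were higher and 1 lower at an unadjusted p under 0.05. With RNAs weighted by the spread of their tissue (weights 1.45 for testis and 0.291 for cord, an alternative chosen after seeing the data) 0 were called as well, and 16 were higher and 2 lower at an unadjusted p under 0.05. With arrays scaled to 1 spread, 10 were higher and 0 lower, where 3.51% and 3.88% of all probes were. Without the cord RNA of mouse 5995, 12 were higher and 5 lower (6.84% and 7.73% of all probes), and without pool1 24 were higher and 9 lower (13.3% and 14.1%). The calls in this paragraph and the next therefore rest on a spread taken as equal in both tissues.

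Of the 24 probes called in that fit, 20 had a testis mean above 0 and a cord mean below 0. Hsp90aa1 probe 8066 differed by 0.62 ± 0.10 (SE; limma adjusted p = 0.00249), at 0.21 in testis and -0.41 in cord, and the SDs of the tissues did not overlap. Dnajc7 probe 14525 differed by 0.48 ± 0.07 (adjusted p = 0.00162), Dnajb1 by 0.50 ± 0.10 (adjusted p = 0.0065), Hspd1 by 0.42 ± 0.13, Hspe1 by 0.43 ± 0.12, Dnaja1 by 0.36 ± 0.11 and Hspa1l by 0.47 ± 0.13. In cord, Hspd1 averaged -0.44 with wr/wr RNA in Cy5 and 0.10 in Cy3. In the same order, Hspe1 was at 0.03 and -0.48, and Dnaja1 at 0.11 and -0.44. Hsp90aa1 probe 8066 and Dnajb1 had cord means below 0 in both dyes. Cryab probe 17462 differed by 0.37 ± 0.11 through its low cord values, with both tissue means below 0. Those cord values averaged -0.76 with wr/wr RNA in Cy3 and -0.08 with it in Cy5. On the other side, Hspb1 differed by -0.57 ± 0.14 (adjusted p = 0.0157), with means of 0.12 in testis and 0.69 in cord, Hspa14 probe 5947 by -0.39 ± 0.11 (adjusted p = 0.0267) and Bag3 probe 19535 by -0.29 ± 0.09 (adjusted p = 0.0392), at -0.04 in testis and 0.24 in cord. Hsp90aa1 probe 9680 was at -0.21 ± 0.11 and was not called, so the 2 Hsp90aa1 probes had differences of opposite sign.

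**Figure D5:**
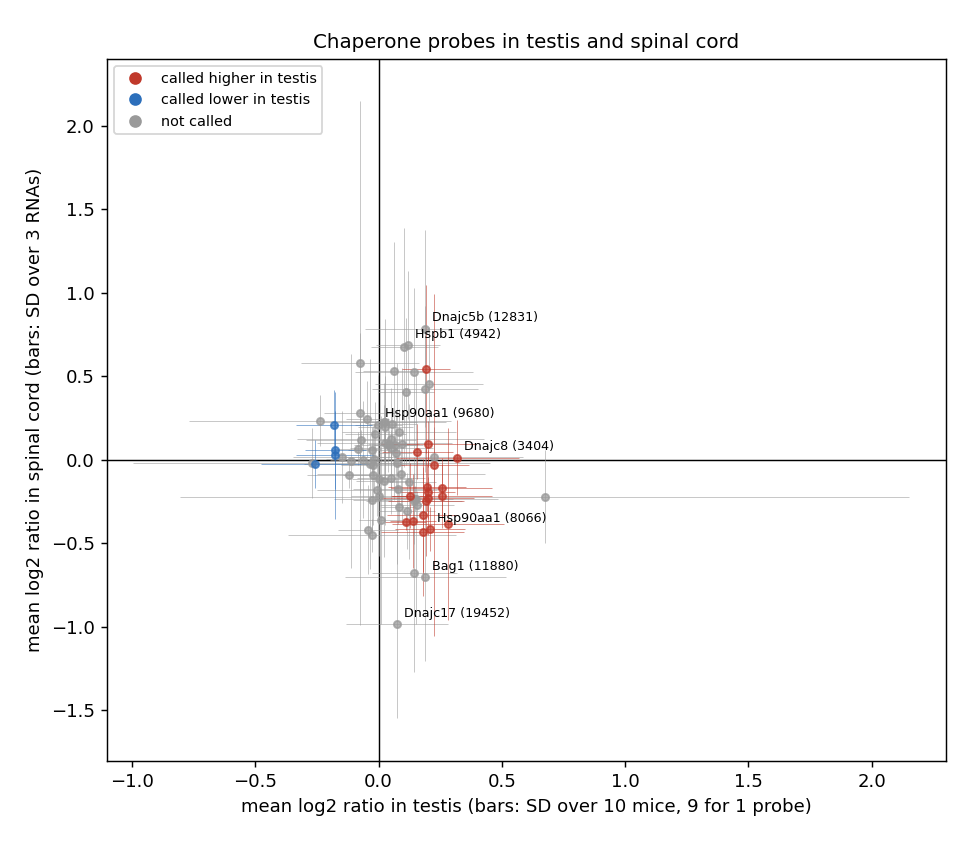
Mean log2 ratio in testis (x axis, bars SD over 10 mice, or 9 for 1 probe) against the mean in spinal cord (y axis, bars SD over 3 RNAs) for the 85 chaperone probes tested in both tissues, coloured by their call in testis. Of the 18 probes called higher in testis, 14 lie below 0 on the cord axis, and Hspb1 lies above 0 on both axes.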

How the data were processed

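The authors deposited 1 log2 ratio per probe and array for 50 arrays (40 testis, 10 cord). The log base was read from the values, which reach 16.976 in size, and for background correction, normalization and filters the sources used here give nothing. Per the labels' protocols, 20 µg of total RNA were reverse transcribed and labelled indirectly with Cy3 or Cy5. The sample labels list 10 wild-type mice per pool and the labelling protocol names 6, a difference that was not settled. No scanner intensities were used here, so the number of arrays limits the precision and no level behind a ratio is known. Array medians lay between -0.091 and 0.058, and arrays held 18338 to 20189 values.

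Each array was centred on its median, arrays of 1 dye were averaged per RNA, and the Cy5 and Cy3 means were averaged, so that arrays of an RNA count as 1 replicate. Probes with both dyes in at least 8 of 10 testis mice (97 chaperone probes) or in all 3 cord RNAs (86) entered lmFit and eBayes of limma 3.58.1 (R 4.3.3), each ratio against 0, with p-values adjusted over all probes (Benjamini-Hochberg) and a threshold of 0.05. The tissue difference was fitted over the 13 RNAs. The replicate block pairs each cord RNA with the testes of its own mice, as the mouse numbers in the labels give; deviations of the paired RNAs correlated at -0.0087, 0.0055 and 0.0084. The 1472 values over 10 in size, 5 of them in chaperone probes, were positive with wr/wr RNA in Cy5 and negative with it in Cy3. They were kept in the main analysis. No pair of arrays in the same dye correlated below -0.0397.

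Updating symbols through Entrez identifiers changed 0 of the chaperone symbols. The genes given with values are all called ones, the 8 highest and 8 lowest in each tissue, a set of well-known chaperones, and other probes of these, though not every one in both tissues. The genes, lists and markers were chosen with earlier results of these data known. Alternatives were each dye alone, Cy3 arrays with the sign turned, no centring, scaling, extreme values as missing, probes averaged per gene, filters, a robust spread, and RNAs left out. Intervals are 95% confidence intervals. Correlations used 100000 permutations (scipy 1.17.1). The tests were run on simulated data first.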

Additional observations from a re-analysis of the deposited data

Results flagged for a closer look

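Single mice stood apart from the other testes, by Dixon's test at the 95% level, for 13 of 97 chaperone probes (13.4%), where 19.8% of all probes had such a mouse and chance alone gives about 1 group in 20. Mouse 6065 was the outlying one for 6 probes: Dnajb6 probe 11425 (-0.72), Dnajc9 (-0.49), Hspa12b (1.09), Hspa1a (0.296), Hspb6 (-0.58) and Hspb8 probe 2419 (-1.46). Mouse 5995 stood apart for Dnajb8 probe 11390 (-0.59), Dnajc18 (-0.20) and Dnajc8 probe 4030 (0.80), and mouse 5907 for Hspa4 probe 12027 (0.55) and Dnajc5 probe 15417 (-4.30). Mouse 6069 stood apart for Dnajc30 (0.43) and mouse 6493 for Dnajc25 probe 15485 (4.48). Of these probes Hspa4 12027 and Dnajc8 4030 were called higher in testis, each with every mouse above 0, and the others were not called.

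The ratio differed between testis and cord, in the fit with 1 spread for both tissues, for 24 probes. As differences of testis minus cord, those not yet given are Bag1 0.89, Hspa4 probe 12027 0.44, Hspa9 probe 5188 0.34, Dnajb11 0.82, Dnajb4 probe 13976 0.39, Dnajb6 probe 1992 0.37, Dnajb8 probe 8128 0.38, Dnajc10 probe 795 0.43, Dnajc17 probe 19452 1.06, Dnajc2 0.61, Dnajc6 probe 10369 0.42, and Dnajc8 0.67 with probe 4030 and 0.51 with probe 7613. The others are Bag3 probe 19535 at -0.29, Hspa14 probe 5947 at -0.39, Hspa1l at 0.47, Hsp90aa1 probe 8066 at 0.62, Dnaja1 at 0.36, Dnajb1 at 0.50, Dnajc7 probe 14525 at 0.48, Hspd1 at 0.42, Hspe1 at 0.43, Cryab probe 17462 at 0.37 and Hspb1 at -0.57. None of the 24 was called with the replicate block.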

How the results depend on the processing

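In testis, 19 chaperone probes were called higher and 4 lower. The higher count was 3 with the Cy3 arrays alone, 7 with the sign of those arrays turned and 11 with probes averaged per gene; the lower count was 1 in each of the last 2 settings and 2 without mice 5905, 5997 and 6065, whose dye orientations correlated below 0 (a setting chosen after seeing the data). Fewer probes enter when genes are averaged; the cause of the other changes was not tested. With each mouse left out, the counts ranged from 3 to 23 higher and from 0 to 4 lower, and the median ratio from 0.0514 to 0.0698. Of the 23 called probes, 3 (Dnajb6 9719, Dnajc15 and Dnajb4 13976) were called with every mouse left out in turn. No centring, scaling, extreme values as missing, the filters, averaging all arrays alike and the robust spread left the higher count between 18 and 22 and the lower at 4. Among probes called in the analysis above or in the setting itself, signs turned in testis with 1 dye alone for Bag3 probe 19535 (0.20 in Cy5), Dnajc7 14525 (-0.0495 in Cy3) and Dnaja1 (-0.0079 in Cy3), and with Cy3 arrays turned for Dnajc8 4030 (-0.14), Hspa9 5188 (-0.12), Bag6 7956 (0.29), Bag6 14119 (0.16), Bag4 19402 (0.23) and Bag3 19535 (0.25). In cord, 0 probes were called in every setting, and the median ranged from -0.0565 to 0.0246 with an RNA left out; at 3 RNAs the design called none of the simulated shifts.

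Of the tissue differences (21 higher, 3 lower), 0 were called in either direction with the replicate block and 0 with RNAs weighted by the spread of their tissue. The higher count was 10 with Cy5 arrays alone, 10 with arrays scaled to 1 spread (lower 0) and 10 with Cy3 arrays turned, and the lower count was 12 with Cy3 arrays alone. With each cord RNA left out they ranged from 12 to 24 higher and from 4 to 9 lower. In Cy5 alone Hspb7 3137 was at 0.60, Dnajb2 6877 at 1.10 and Cryab 17462 at -0.11, and in Cy3 alone Dnajc5 11759 at -0.97. With Cy3 arrays turned, a setting added after seeing the data for this difference, the sign reversed for Dnajc10 795 (-0.0877), Dnajb6 1992 (-0.13), Dnajc8 4030 (-0.17) and 7613 (-0.0862), Hspa1l (-0.13), Hspa9 5188 (-0.17), Hsp90aa1 8066 (-0.0934), Dnajb4 13976 (-0.14), Dnajc7 14525 (-0.21), Hspe1 (-0.19), Cryab 17462 (-0.48), Dnaja1 (-0.0671), Hspa14 5947 (0.0655), Bag3 19535 (0.12), Hspb7 3137 (0.83), Dnajb2 6877 (1.49), Dnajb12 7103 (0.32), Dnajb8 11390 (0.44), Dnajc5b 12121 (0.51) and 12831 (0.70) and Hspa9 13867 (0.40). The cause of these reversals was not tested.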
